A study of Drosophila melanogaster with 140 samples.

Results

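Aging of control glia was followed in 6 of the 140 libraries of the study, 3 of repoGFP+ cells sorted from brains at 5D and 3 at 34D. These libraries were chosen by their labels alone. All 6 came from male Drosophila of the genotype repoGal4 > UAS-mCD8GFP x mCherry RNAi, raised at 25°C, in which Gal4 under the repo promoter drives a membrane GFP in glia. mCherry RNAi targets no fly gene and served as the control for Mettl3 RNAi, so the flies of both ages carried an RNAi construct. Each replicate was made from 10 to 15 brains that were dissociated with papain and liberase in the presence of actinomycin D, and about 500 live cells per replicate were sorted for polyA RNA-seq. The labels call the replicates biological. The GFP- cells of brains of the same genotype (3 libraries per age), the repoGFP+ cells of Mettl3 RNAi brains (3 per age) and the ribosome-bound RNA of control glia (repoGal4 > UAS-RPL3-FLAG x mCherry RNAi, TRAP-IP, 4 per age) were used for comparison. A list of m6A transcripts was taken from fly heads (daGal4 > mCherry RNAi or Mettl3 RNAi, m6A-IP and input, 5D and 34D, 3 libraries of each).

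Glia of the fly brain comprise the perineurial and subperineurial glia of the blood-brain barrier, the cortex glia that wrap neuronal cell bodies, and the astrocyte-like and ensheathing glia of the neuropil. They take up and recycle neurotransmitters, pass sugars and lipids to neurons, clear debris and carry much of the detoxification of the brain. Repo is the homeodomain transcription factor that all lateral glia express, and its promoter gives the driver used for the sort.

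The 6 libraries held 11571749 to 15183101 counted reads and 11132 to 11906 genes with a read, and 2.12 to 3.51% of reads were mitochondrial. Levels are given as CPM, the reads of a gene scaled to the size of its library by TMM over the 24 libraries sorted with repoGal4. All genes tested summed to 1078310 to 1152630 CPM at 5D and 926625 to 953858 CPM at 34D in repoGFP+ cells. In GFP- cells of control brains these sums were 967213 to 1002980 and 902623 to 925416 CPM. Sums of gene lists are to be read against these values. On the first principal component (31.3% of the variance of 500 genes) the ages separated, and on the second (22.5%) 34D Rep3 lay at -49.3 while 34D Rep1 and Rep2 lay at 31.8 and 28.9, so that 1 aged library stood apart from the other 2. Where a call or a direction turned without it, the value without it is given as well. 34D Rep3 also had the highest sum of glial identity genes among the aged libraries (11908 CPM, beside 7368 and 6833 CPM). Leaving it out therefore makes the fall of that sum larger.

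The label was first checked against markers. repo itself was measured at 243, 272 and 312 CPM in repoGFP+ cells at 5D and at 80.2, 119 and 159.8 CPM at 34D, compared with 0.584 to 5.35 CPM in the 6 libraries of GFP- cells. Every repoGFP+ library was thus far above every GFP- library, and the ages did not overlap. The log2 fold change of repo was -1.10 ± 0.26 (SE, n = 3 per age, edgeR adjusted p = 0.106), which did not pass the threshold of 0.05, whereas DESeq2 gave an adjusted p of 0.00288, and without 34D Rep3 edgeR gave -1.36 and 0.0504. The repo exons overlap those of CG7156. Reads of 24 neuronal markers were found in the repoGFP+ libraries as well, among them elav, an RNA-binding protein of neurons, at 136 to 186 CPM, and nSyb, a synaptic vesicle protein, at 1376 to 1709.5 CPM. The neuronal markers summed to 16814 to 20104 CPM at 5D and 16445 to 20268 CPM at 34D in repoGFP+ cells, and to 21731 to 27286 CPM in GFP- cells, so that their mean in repoGFP+ cells was 77.8% of that in GFP- cells. The repoGFP+ libraries therefore held glial transcripts at high enrichment together with neuronal transcripts near the level of the other brain cells.

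**Figure D1:**
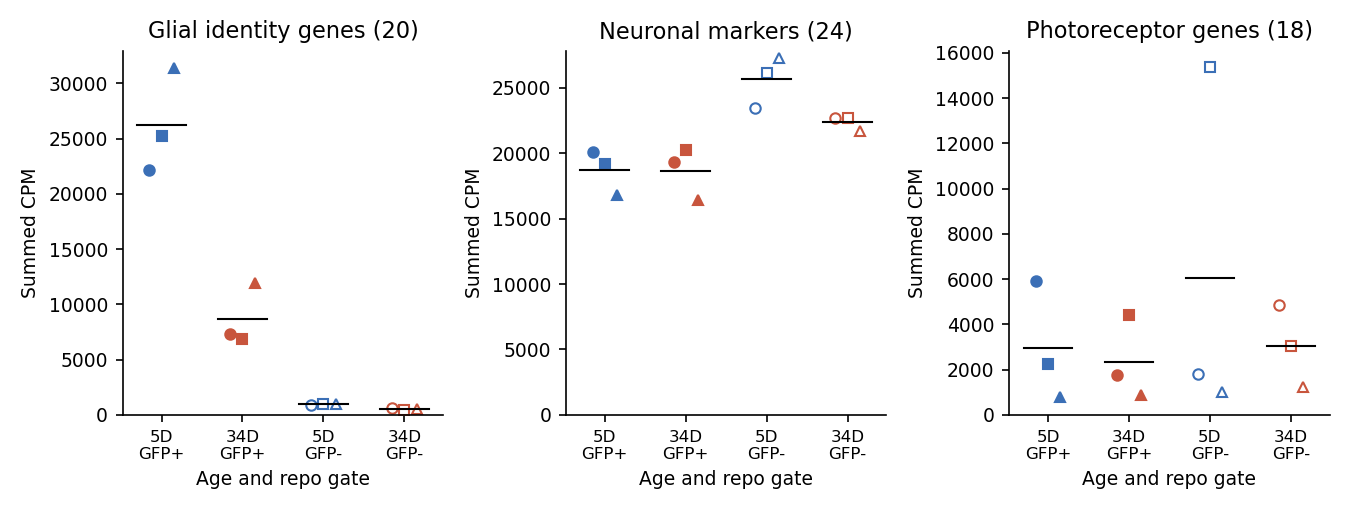
Summed CPM of 20 glial identity genes, 24 neuronal markers and 18 photoreceptor genes (y axes, from 0) in each sorted control library by age and gate (x axis). Filled symbols are repoGFP+ and open symbols GFP- cells, circles, squares and triangles are Rep1, Rep2 and Rep3, and lines are means of 3. The glial sum lies at 22131 to 31414 at 5D and 6833 to 11908 at 34D, while the neuronal sum of repoGFP+ cells overlaps between ages.

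Glial identity genes were lower in aged repoGFP+ cells. The 20 genes of the list summed to 22131, 25283 and 31414 CPM at 5D and to 7368, 6833 and 11908 CPM at 34D, and to 463 to 1013 CPM in GFP- cells. The mean at 34D was 33.1% of that at 5D, and 27.0% without 34D Rep3, whereas the neuronal sum at 34D was 99.9% of that at 5D. Of the 19 members tested, 3 fell (alrm, e and Inx2) and none rose, among 10 genes that fell (0.109%) and 1 that rose (0.0109%) of 9133 tested. The median log2 fold change of the members was -1.33, beside 0.05 over all genes tested, and -0.15 with the scaling on glia-enriched genes described further on. Without 34D Rep3 8 of the 19 fell, with 1.57% of all genes lower, and their median was -1.74. By DESeq2 10 of the 19 were lower and none higher, with 5.37% of all genes lower and 2.19% higher. Since these are bulk samples with a fixed number of sorted cells, fewer glia among the cells captured and less of a transcript per glial cell cannot be told apart.

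The gene with the smallest adjusted p was alrm, a leucine-rich repeat protein of astrocyte-like glia. It was measured at 1789, 1886 and 1752 CPM at 5D and at 374, 400.2 and 448 CPM at 34D, and at 0.0635 to 6.91 CPM in GFP- cells. Replicates lay close together at either age, and the ages did not overlap. Its mean fell 4.44-fold (log2 fold change -2.05 ± 0.12, edgeR adjusted p = 0.00246). Ebony (e), the enzyme with which glia conjugate β-alanine to histamine and dopamine, was measured at 884, 1116 and 1077 CPM at 5D and at 304, 269 and 325 CPM at 34D, which is a fall of 3.43-fold (log2 fold change -1.68 ± 0.15, edgeR adjusted p = 0.0147). Inx2, a gap junction innexin of glia, fell from 505, 627 and 819.6 CPM to 135, 119 and 139 CPM, 4.96-fold in the mean (log2 fold change -2.21 ± 0.20, edgeR adjusted p = 0.0149). All 3 aged libraries were near the same level for each of these genes, including 34D Rep3.

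The white gene (w), an ABC transporter subunit for pigment precursors and amines, fell from 573, 702 and 917 CPM to 194, 195 and 213 CPM (log2 fold change -1.76 ± 0.19, edgeR adjusted p = 0.0245). The stock list of the study gives the driver transgene a w+ marker, whose reads cannot be told apart from those of the endogenous gene. CG31663 fell from 1494, 1612 and 1723 CPM to 293, 336 and 543 CPM (log2 fold change -1.95 ± 0.23, edgeR adjusted p = 0.0339), with 34D Rep3 the highest of the aged libraries. pes (peste) encodes a scavenger receptor of the CD36 family. It fell from 80.3, 103 and 88.7 CPM to 17.7, 12.3 and 12.2 CPM, 6.44-fold in the mean (log2 fold change -2.58 ± 0.30, edgeR adjusted p = 0.0339).

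ImpL2 encodes a secreted protein that binds insulin-like peptides and dampens insulin signaling. It was measured at 149, 190.5 and 206 CPM at 5D and at 18.2, 12.7 and 18.8 CPM at 34D, and at 0 to 4.3 CPM in GFP- cells. Its mean was 11.0-fold lower at 34D (log2 fold change -3.35 ± 0.26, edgeR adjusted p = 0.00969), with no overlap between the ages. Its exons overlap those of CG46460. ImpL2 was the only member of the 22 tested of the insulin and FoxO signaling list that passed the threshold. The median of the list was 0.05, the same as over all genes. Without 34D Rep3 it was -0.14, beside 0.03 over all genes.

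A further 3 of the genes that fell were near 0 in every aged library. Cln3 is the fly counterpart of a human gene of juvenile neuronal ceroid lipofuscinosis, and its product is a lysosomal and endosomal membrane protein. It was measured at 37.8, 64.4 and 21.0 CPM at 5D and at 0, 0 and 0.0821 CPM at 34D, with 1551 reads in all at 5D and 1 read at 34D. The ratio of the pooled read rates was 1712, with a 95% exact interval of 307 to 67653 that covers counting error only (edgeR adjusted p = 0.0182). The fitted log2 fold change of -10.13 depends on the prior count and is no bound. Pkg21D, a cGMP-dependent protein kinase, had 849 reads at 5D (18.6 to 30.3 CPM) and 2 reads at 34D, a ratio of 468 with an interval of 129 to 3875 (edgeR adjusted p = 0.0245). CG3544 had 817 reads at 5D (19.8 to 25.9 CPM) and 5 reads at 34D, a ratio of 180.3 with an interval of 77.0 to 557 (edgeR adjusted p = 0.0149). CG3544 (dm6 chromosome 2L, 784336 to 788776, plus strand) and Pkg21D (chromosome 2L, 786153 to 790798, minus strand) share exonic sequence, and since no source used here gives a strand option for the counting they may have been measured in part by the same reads. The 3 libraries of repoGFP+ cells of Mettl3 RNAi brains at 34D spread widely for these genes, from 0.511 to 15.7 CPM for Cln3, from 0.0699 to 24.2 CPM for CG3544 and from 0.0699 to 25.2 CPM for Pkg21D, so that 1 of them was also near 0 for each gene.

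The single gene that rose was CG3277. It was measured at 0.175, 0.224 and 0.164 CPM at 5D (7 reads in all) and at 11.6, 23.5 and 13.8 CPM at 34D (646 reads), a ratio of pooled read rates of 83.6 with a counting interval of 40.4 to 209 (edgeR adjusted p = 0.0339). Its exons overlap those of Fign. In GFP- cells it was measured at 4.18 to 10.3 CPM at 5D and at 0 to 7.17 CPM at 34D, and in repoGFP+ cells of Mettl3 RNAi brains at 0.107 to 10.4 and 0.146 to 5.73 CPM, so that libraries of 1 age near 0 and well above it were found in other groups too.

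**Figure D2:**
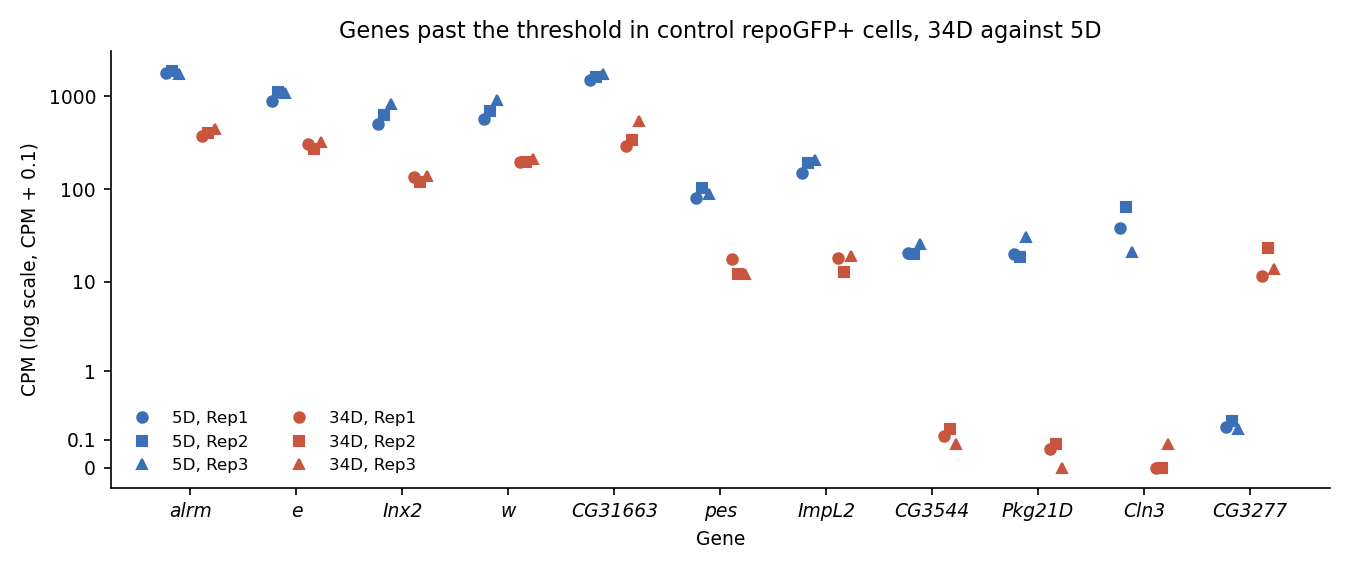
CPM of the 11 genes past the edgeR threshold (x axis) in the 3 libraries at 5D (blue) and the 3 at 34D (red), on a log axis with 0.1 CPM added. No gene overlaps between ages, and Cln3, CG3544 and Pkg21D lie below 0.2 CPM in all 3 aged libraries.

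The count of genes past the threshold depended on the test and on 1 library. edgeR called 1 gene higher and 10 lower, with 555 genes higher (6.08%) and 777 lower (8.51%) at an unadjusted p under 0.05, while DESeq2 called 200 higher and 490 lower of the 9133 tested. Without 34D Rep3, edgeR called 15 genes higher and 150 lower of 9534 tested (0.157% and 1.57%), and all 11 genes passed. With any of the other libraries left out fewer of the 11 passed. Without 34D Rep1 none did, and alrm had an edgeR adjusted p of 0.0555. Without 34D Rep2 alrm and ImpL2 passed, as they did without 5D Rep2, without 5D Rep1 these and e, Inx2 and w, and without 5D Rep3 alrm alone. All 11 kept their direction in each of these fits. The 3 libraries of one age lay wholly below those of the other for many more genes, 1321 being lower in all 34D libraries (14.5%) and 666 higher (7.29%).

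To see whether the lower transcripts were those of glia, genes were grouped by their enrichment in repoGFP+ over GFP- cells of the Mettl3 RNAi brains, libraries that do not enter the control comparison. The 389 genes enriched at least 16-fold had a median log2 fold change with age of -1.28, and 96.9% of them were below 0. The medians were -1.04 for 192 genes enriched 8- to 16-fold, -0.87 for 275 genes enriched 4- to 8-fold, and -0.47 for 470 genes enriched 2- to 4-fold. The 7617 genes at 0.5- to 2-fold had a median of 0.12, and the 190 genes that were lower in repoGFP+ cells had a median of 0.34. The change with age thus went down in order of glial enrichment. Of the 10 genes that fell, 9 were enriched at least 8-fold, compared with 6.36% of all genes tested. Without 34D Rep3 the median of the most enriched group was -1.59. These genes share libraries and are no independent replicates, and the medians are a description.

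**Figure D3:**
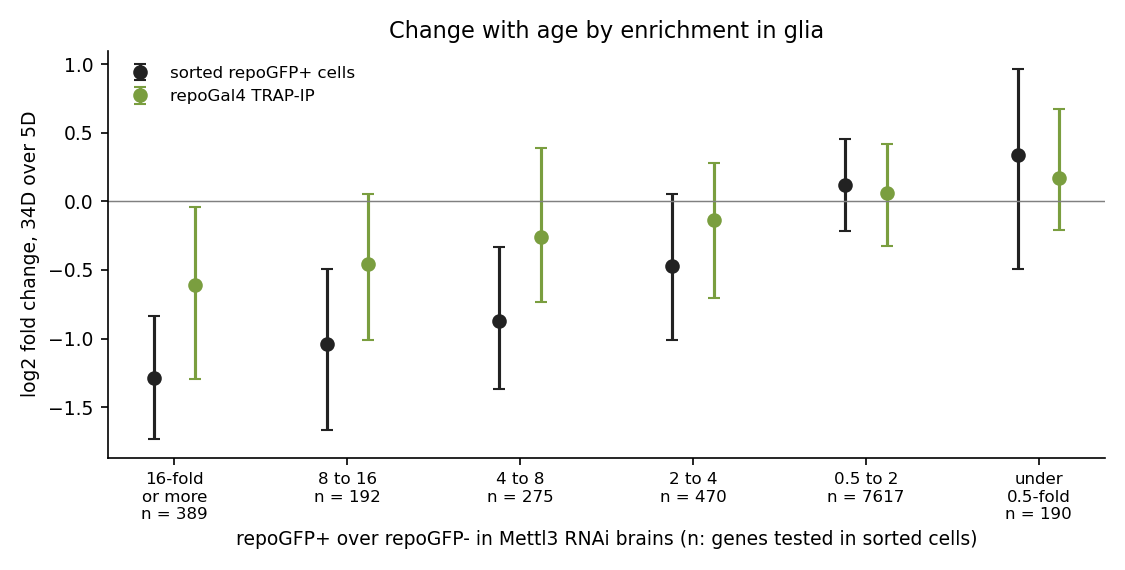
Median log2 fold change from 5D to 34D (y axis, bars from the lower to the upper quartile) for genes grouped by enrichment in repoGFP+ over GFP- cells of Mettl3 RNAi brains (x axis), in sorted control repoGFP+ cells (black) and in control repoGal4 TRAP-IP (green). The medians of the sorted cells go from -1.28 in the most enriched group to 0.34 in the least.

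As most glia-enriched genes were lower, the fit was repeated with scaling factors taken from the 581 genes enriched at least 8-fold, an alternative added after the data were seen. It moved the median of all genes to a log2 fold change of 1.31 and that of the glia-enriched genes to -0.02, so that 4126 genes were called higher (45.2%) and 62 lower (0.679%). Relative to other glia-enriched genes, 35 of them were called lower and 25 higher, and 8 of the 10 genes remained lower, ImpL2 with -2.11 (edgeR adjusted p = 0.0123), alrm with -0.81 (0.0423), Inx2 with -0.93 (0.0301), CG31663 with -0.75 (0.0383) and pes with -1.31 (0.0381) besides the 3 near 0. Values of e (-0.42, edgeR adjusted p = 0.222) and w (-0.47, 0.189) did not pass, and repo was at 0.12. With this scaling ImpL2, alrm, Inx2, CG31663 and pes thus still passed as lower, and for repo, e and w no difference passed the threshold. The 10 genes were chosen for their fall in the same 6 libraries, so their values under this scaling are no independent test.

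The gene lists share members, so their counts and medians are not separate results. alrm, e, Gs2, Eaat1 and Gat are on both the glial identity and the astrocyte list, and nrv2 is on the glial identity and the blood-brain barrier list. Of the glial classes, the astrocyte and ensheathing list had 2 members that fell (alrm and e) of 14 tested and a median of -1.29 (-0.11 with scaling on glia-enriched genes), and without 34D Rep3 7 of 14 fell and the median was -1.75. The genes of the blood-brain barrier had a median of -1.25 (0.00 with that scaling) with none of 15 past the threshold by edgeR, 10 lower at an unadjusted p under 0.05 and 7 lower by DESeq2, and 2 of 15 fell without 34D Rep3. Over all genes 0.109% were lower by edgeR, 8.51% at an unadjusted p under 0.05, 5.37% by DESeq2 and 1.57% by edgeR without 34D Rep3, against which the counts of this and the following lists are to be read. nrv2, a β subunit of the sodium pump and the most abundant of them, was measured at 10690.0, 9774 and 13181 CPM at 5D and at 2469, 1984 and 4386 CPM at 34D (log2 fold change -1.83 ± 0.28, edgeR adjusted p = 0.0577, and -2.23 with 0.0156 without 34D Rep3), and the trehalose transporter Tret1-1 at 1461, 513 and 1404 CPM and at 143, 281 and 319 CPM (-2.09 ± 0.45, edgeR adjusted p = 0.0845). The ages did not overlap for either gene. The cortex glia list had a median of -0.91, which became 0.35 with scaling on glia-enriched genes, and none of 8 passed the threshold (4 lower at an unadjusted p under 0.05, 2 by DESeq2 and 1 without 34D Rep3). Its most abundant member Cyp4g15, a cytochrome P450, was measured at 746, 1033 and 1250.2 CPM at 5D and at 466, 446 and 559 CPM at 34D (log2 fold change -0.94 ± 0.20, edgeR adjusted p = 0.0845), and Desat1, a fatty acid desaturase, had means of 633 and 519 CPM.

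Genes for uptake and recycling of transmitters, a main task of glia, had a median of -1.10 (0.21 with scaling on glia-enriched genes), with e the only one of 13 that passed, 5 lower by DESeq2 and 3 lower without 34D Rep3. Glutamine synthetase Gs2, which makes glutamine from glutamate, was measured at 4793, 6869.6 and 8527 CPM at 5D and at 2308, 2307 and 4063 CPM at 34D (log2 fold change -1.12 ± 0.28, edgeR adjusted p = 0.119, and -1.44 with 0.0423 without 34D Rep3). The GABA transporter Gat was measured at 568, 1086 and 1149 CPM and at 273, 233 and 539 CPM (-1.33 ± 0.37, edgeR adjusted p = 0.154, and -1.78 with 0.0496 without 34D Rep3). The glutamate transporter Eaat1 was measured at 589, 1294 and 1155 CPM and at 508, 550.3 and 666 CPM (-0.72 ± 0.28, edgeR adjusted p = 0.292). These 3 were named after their values were seen. With any library other than 34D Rep3 left out, Gs2 and Gat did not pass (edgeR adjusted p of 0.141 to 0.297 and 0.161 to 0.357). For Eaat1 5D Rep1 lay within the range of the aged libraries, while for Gs2 and Gat the ages did not overlap. Among detoxification genes, the glutathione S-transferases had a median of -0.96 (0.30 with scaling on glia-enriched genes) with none of 26 past the threshold, 9 lower at an unadjusted p under 0.05, 8 lower by DESeq2 and 3 of 27 lower without 34D Rep3. GstD1 had means of 929 ± 63.3 and 389 ± 178 CPM (SD) and GstE2 of 635 ± 15.6 and 236 ± 100.5 CPM (log2 fold changes -1.16 and -1.33, edgeR adjusted p = 0.129 and 0.079), with 34D Rep3 the highest aged library for both. Without it their log2 fold changes were -1.57 and -1.73 (edgeR adjusted p = 0.0287 and 0.0156). With any other library left out neither passed (edgeR adjusted p of 0.208 to 0.296 for GstD1 and 0.163 to 0.212 for GstE2). The cytochrome P450s had a median of -0.57 (0.62 with that scaling) with none of 43 past the threshold, 9 lower at an unadjusted p under 0.05, 6 lower by DESeq2 and 3 of 47 lower without 34D Rep3.

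Transcripts of energy metabolism were measured at lower sums at 34D in both gates, where the sum over all genes tested was lower too. The nuclear-coded genes of oxidative phosphorylation summed to 31496 to 36739 CPM at 5D and to 19362 to 23801 CPM at 34D in repoGFP+ cells, and to 32531 to 35999 and 22085 to 24568 CPM in GFP- cells, without overlap between the ages in either. None of the 70 members tested passed by edgeR in repoGFP+ cells (1 higher and 47 lower at an unadjusted p under 0.05, 1 higher and 29 lower by DESeq2, and 2 of 72 lower without 34D Rep3) and the median was -0.59 (0.63 with scaling on glia-enriched genes). In GFP- cells 25 of 71 were lower and 1 higher, with 0.981% of all genes lower, and the median was -0.54. ATPsynC, subunit c of the ATP synthase, was measured at 4246, 3672 and 3810.2 CPM at 5D and 2223, 2100.4 and 2327 CPM at 34D (log2 fold change -0.72 ± 0.11, edgeR adjusted p = 0.0577, 0.0486 without 34D Rep3, and a log2 fold change of 0.53 with scaling on glia-enriched genes), and in GFP- cells its log2 fold change was -0.69 (edgeR adjusted p = 0.0112). The difference between these changes of ATPsynC was -0.12 ± 0.13 (edgeR adjusted p = 0.858). The TCA cycle and glycolysis lists had medians of -0.50 and -0.64 (0.73 and 0.59 with that scaling) with none of 23 and none of 25 past the threshold by edgeR, 13 and 17 lower at an unadjusted p under 0.05, 9 and 13 lower by DESeq2, and 1 and 6 lower without 34D Rep3. Ald1, the glycolytic aldolase, had means of 4051 ± 309.5 and 2421 ± 373 CPM (SD), a log2 fold change of -0.64 ± 0.13 (edgeR adjusted p = 0.0819, and -0.76 with 0.0453 without 34D Rep3). With any other library left out neither ATPsynC nor Ald1 passed (edgeR adjusted p of 0.115 to 0.179 and 0.159 to 0.223). The malic enzyme Men-b had means of 1262 and 668 CPM.

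The other lists had no member past the threshold by edgeR, and with scaling on glia-enriched genes all their medians were above 0. For lipid storage and transport the median was -0.56 (35 tested), for the circadian clock -0.53 (10), for Toll and Imd components -0.42 (31), for engulfment and lysosome -0.29 (26), for antioxidant and metal genes -0.29 (27) and for heat shock proteins -0.19 (20). By DESeq2 7, 2, 2, 5, 5 and 2 of these were lower, in the same order, and 1 heat shock gene was higher, beside 5.37% lower and 2.19% higher over all genes. Without 34D Rep3, edgeR called 3 genes lower for lipids, 1 for the clock, 2 for engulfment and lysosome and 1 for antioxidant genes, and 1 heat shock gene higher. The remaining medians were those of odorant-binding proteins (-0.18, 10 tested), the proteasome (-0.08, 35), mitochondrial ribosomal proteins (-0.07, 72), ER folding (-0.06, 30), cytosolic ribosomal proteins (0.13, 84), the mitochondrial genome (0.14, 15), chromatin genes (0.20, 15), m6A writers and readers (0.33, 10) and JAK/STAT genes (0.34, 6). Among these DESeq2 called 2 ribosomal protein genes higher and 1 lower, 1 odorant-binding protein each way, 1 gene of the mitochondrial genome each way and 1 proteasome gene higher. Though its median was above 0, the mitochondrial genome summed to 23977 to 39198 CPM at 5D and 20496 to 22524.5 CPM at 34D. In GFP- cells its sums were 9001 to 9949 and 5235 to 6103 CPM, so that as CPM all aged libraries were lower in both gates. The sum over all genes tested was lower at 34D as well. As a share of counted reads, before scaling, mitochondrial genes overlapped between the ages in repoGFP+ cells (2.12 to 3.51% at 5D and 2.21 to 2.40% at 34D). In GFP- cells these shares were 0.925 to 1.00% and 0.565 to 0.675%. None of the 24 neuronal markers passed, 5 were higher and 1 lower at an unadjusted p under 0.05, 2 were higher by DESeq2, and their median was 0.22. Gad1, which makes GABA, had means of 4084 and 2717 CPM (log2 fold change -0.49, edgeR adjusted p = 0.405), and Appl, the amyloid precursor homolog, of 2077 and 2506 CPM (0.37, edgeR adjusted p = 0.449).

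Markers of other cell types were measured in the same libraries. There the sum over all genes tested was also lower in all aged libraries (1078310 to 1152630 CPM at 5D and 926625 to 953858 CPM at 34D). Photoreceptor genes summed to 773 to 5904 CPM at 5D and 874 to 4404 CPM at 34D. Muscle genes summed to 719.8 to 1602 and to at most 705 CPM, fat body genes to 393 to 563 and 187 to 382 CPM, and hemocyte genes to 759 to 1225 and 333 to 393 CPM, each lower in all aged libraries. Their medians were -0.41 (18 photoreceptor genes tested), -0.27 (12 muscle genes), -1.17 (5 fat body genes) and -0.77 (8 hemocyte genes), with none past the threshold, 1, 1 and 2 of the muscle, fat body and hemocyte genes lower by DESeq2, and 1 hemocyte gene lower without 34D Rep3. The collagen IV genes Col4a1 and vkg are on both the hemocyte and the blood-brain barrier list. The part of these cell types in the lower glial genes was not tested.

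**Figure D4:**
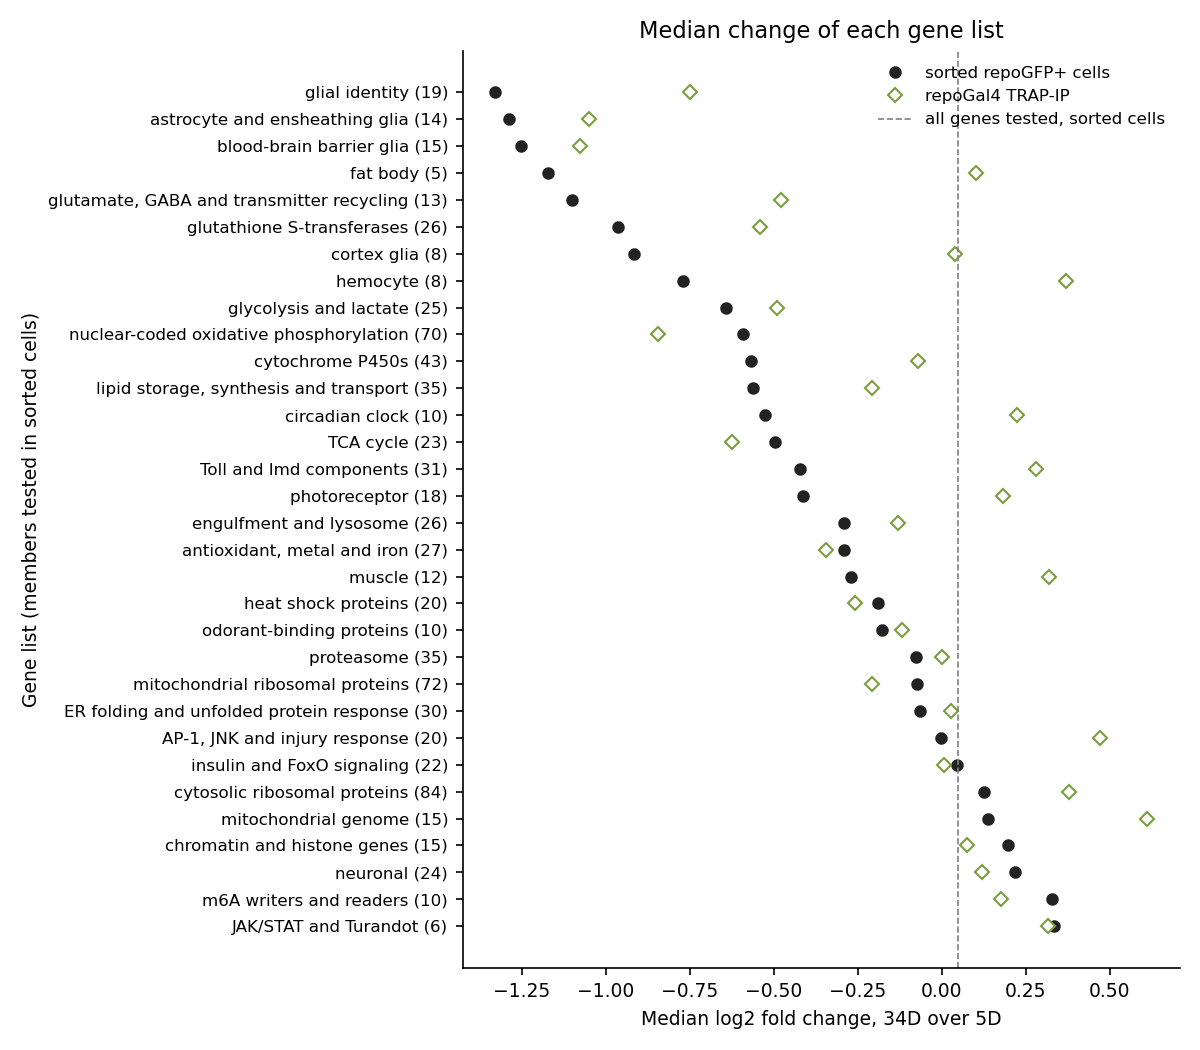
Median log2 fold change from 5D to 34D (x axis) of each gene list (y axis, number of members tested in sorted cells in brackets) in sorted control repoGFP+ cells (filled circles) and control repoGal4 TRAP-IP (open diamonds). The dashed line is the median of all genes in the sorted cells (0.05). Glial identity lies lowest in the sorted cells (-1.33), and glial identity, blood-brain barrier, astrocyte, glutathione S-transferase and oxidative phosphorylation genes are below -0.5 in both.

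The AP-1 and JNK pathway responds to stress and injury in glia. The study names 4 genes that it reports as higher with age in whole brains and after brain injury, and as higher in glia than in neurons. The tissue and ages of that reported rise differ from those of the sorted cells here. Mmp1, a matrix metalloproteinase and AP-1 target, was measured at 62.2, 82.4 and 33.9 CPM at 5D and at 51.7, 56.4 and 43.0 CPM at 34D (log2 fold change -0.14 ± 0.37, edgeR adjusted p = 0.925). puc, a phosphatase that JNK signaling induces and that feeds back on it, was measured at 72.4, 96.1 and 53.8 CPM and at 53.9, 67.2 and 131 CPM (0.27 ± 0.38, edgeR adjusted p = 0.845). The ages overlapped for both. Ets21C, an ETS transcription factor of stress responses, was measured at 1.49, 1.34 and 4.76 CPM and at 0, 0.0811 and 5.58 CPM (-0.34 ± 1.82, edgeR adjusted p = 0.962), and dl (dorsal), the NF-κB factor of Toll signaling, at 29.0, 23.0 and 32.1 CPM and at 1.83, 25.2 and 23.7 CPM (-0.63 ± 0.81, edgeR adjusted p = 0.822). None of the 4 passed the threshold, and without 34D Rep3 puc was at -0.19. Scaling on glia-enriched genes, which moves the median of all genes to 1.31 and calls 45.2% of them higher, gave 1.11 for Mmp1, 1.40 for puc, 0.55 for Ets21C and 0.61 for dl, so that only puc lay above that median. The AP-1 and JNK list as a whole had a median of -0.00 (0.14 without 34D Rep3) with none of 20 past the threshold (1 higher and 2 lower at an unadjusted p under 0.05, and 2 lower by DESeq2). In the TRAP-IP 3 of the 4 were higher at 34D, Mmp1 by 0.81, puc by 1.19 and dl by 1.24 (edgeR adjusted p = 0.0344, 0.00896 and 0.0248), and Ets21C was at 1.79 (0.153). The TRAP-IP held neuronal and photoreceptor transcripts as well, with sums given further on.

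Transcripts with m6A, defined from the head m6A-IP as those whose m6A-IP/input ratio was lower under Mettl3 RNAi, had a median log2 fold change of 0.05 (1990 tested), the same as the 7143 other genes. This list rests on whole genes without a cut on size, while the study used regions of transcripts with a cut on fold change. The test behind it called 1490 genes lower and 537 higher under Mettl3 RNAi at 5D, and 2106 lower and 1345 higher at 34D. Of the 1990, 1 rose and 6 fell, and of the 7143 others none rose and 4 fell. By DESeq2 68 of the 1990 were higher and 144 lower, and 132 of the 7143 were higher and 346 lower. Over all genes 0.0109% were higher and 0.109% lower by edgeR, and 2.19% and 5.37% by DESeq2. The 167 m6A transcripts that were glia-enriched had a median of -1.25, beside -1.23 for all 581 glia-enriched genes tested. The 1823 other m6A transcripts had a median of 0.10, so that the direction followed the enrichment in glia. With scaling on glia-enriched genes these medians were -0.05, -0.02 and 1.37.

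The ribosome-bound RNA of control glia was sequenced in another experiment and gave a second set of libraries under the same driver (3393217 to 8719278 counted reads). These libraries held RNA of other cells too. Neuronal markers summed to 12019 to 16985 CPM at 5D and 12628 to 18309 CPM at 34D. Photoreceptor genes summed to 16804 to 20489 CPM at 5D and 20893.5 to 28006 CPM at 34D. The TRAP-IP was not compared with its input here, and the part of other cells in its changes was not tested. Glial identity genes summed to 15804 to 25722 CPM at 5D and 7530.3 to 11952 CPM at 34D in the TRAP-IP, lower in all aged libraries as in the sorted cells, with a median log2 fold change of -0.75 and 9 of 19 lower. In the TRAP-IP 311 genes were higher (3.26%) and 454 lower (4.75%) of 9553 tested. Of the 10 genes that fell in sorted glia, 3 (30.0%) were also lower here, which is 0.661% of those lower in the TRAP-IP. They were alrm with a log2 fold change of -1.93 ± 0.25 (edgeR adjusted p = 0.00108), Inx2 with -1.98 ± 0.22 (0.000457) and Cln3 with -2.63 (0.00167), and the TRAP-IP had 156 to 285 CPM of Cln3 at 5D and 10.9 to 44.0 CPM at 34D. The remaining genes had log2 fold changes of -1.14 for w, -0.77 for pes, -0.67 for CG3544, -0.51 for ImpL2, -0.39 for Pkg21D, -0.10 for CG31663 and 0.02 ± 0.22 for e, none of which passed. Of the 490 genes lower by DESeq2 in sorted cells, 193 (39.4%) were lower in the TRAP-IP and made up 42.5% of its lower genes, and 3 were higher. Of the 200 genes higher by DESeq2, 30 (15%) were higher in the TRAP-IP (9.65% of its higher genes) and none was lower. Whether the changes differ between the assays was not tested.

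**Figure D5:**
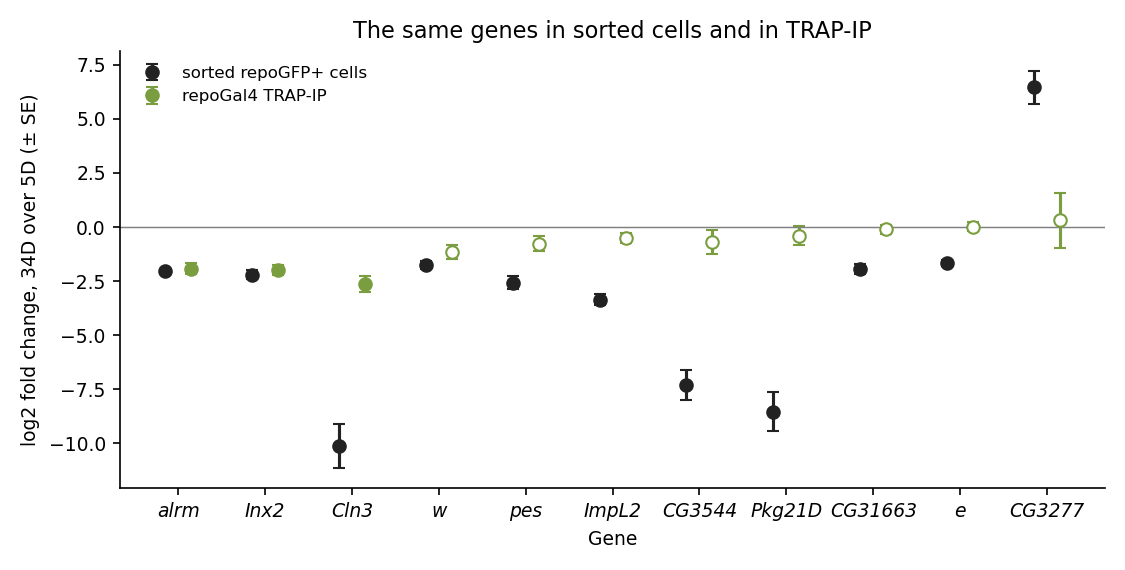
Log2 fold change from 5D to 34D with its standard error (y axis) of the 11 genes past the threshold in sorted control repoGFP+ cells (black, 3 libraries per age) and in control repoGal4 TRAP-IP (green, 4 per age). Filled symbols passed the threshold in that assay. alrm, Inx2 and Cln3 passed in both, while e lay at -1.68 and 0.02. The fitted values of Cln3, CG3544, Pkg21D and CG3277 in sorted cells depend on the prior count.

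The change with age was compared with that in the GFP- cells by an interaction term. No source used here says whether libraries with the same number came from the same brains, and with the number as a block only CG9436 passed (edgeR adjusted p = 0.0276). Of 9834 genes tested none had a higher change in repoGFP+ cells and 3 a lower one (0.0305%), with 362 and 572 at an unadjusted p under 0.05 and 44 (0.447%) and 136 (1.38%) by DESeq2. pes, which fell in repoGFP+ cells, was at 5.76 to 7.29 CPM at 5D and 5.03 to 6.3 CPM at 34D in GFP- cells, and the difference of its changes was -2.55 ± 0.35 (edgeR adjusted p = 0.0425, and 0.128 with the block). CG9436 was at 43.9 to 59.1 CPM at 5D and 19.8 to 32.3 CPM at 34D in repoGFP+ cells, and at 0 to 0.0693 and 5.03 to 13.4 CPM in GFP- cells, where it rose (edgeR adjusted p = 0.0123). The difference was -9.11 ± 0.88 (edgeR adjusted p = 0.00342). asRNA:CR42547, an antisense RNA that shares exonic sequence with mahj and CG15674, was at 10.9 to 22.7 CPM at 5D and 0 to 0.183 CPM at 34D in repoGFP+ cells but at 9.27 to 17.1 and 11.1 to 19.1 CPM in GFP- cells (difference -7.57 ± 0.93, edgeR adjusted p = 0.0209, and 0.11 with the block). The fitted sizes of these last differences depend on the prior count because 1 group was near 0. alrm, e, Inx2 and ImpL2 were at under 12 CPM in all GFP- libraries, so that their change could hardly be measured there.

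In repoGFP+ cells of Mettl3 RNAi brains, where Mettl3 was at 0.17 to 2.45 CPM at 5D and 0 to 3.28 CPM at 34D compared with 3.69 to 12.1 CPM over the 6 control libraries, glial identity genes summed to 27211 to 32751 CPM at 5D and 10541 to 19141 CPM at 34D. Here too every aged library lay below every young one. The median log2 fold change of the list was -0.69, and no gene passed the threshold with age in these libraries by edgeR (419 higher and 465 lower at an unadjusted p under 0.05, and 94 higher and 165 lower by DESeq2). The difference between genotypes in the change with age was tested for 9824 genes and none passed by edgeR, with 219 higher and 373 lower in control at an unadjusted p under 0.05 and 19 (0.193%) and 48 (0.489%) by DESeq2. For ImpL2 the mean was 142 CPM at 5D and 88.3 CPM at 34D under Mettl3 RNAi, and the difference between the changes was -2.73 (edgeR adjusted p = 0.0645). alrm had means of 1756 and 771 CPM under Mettl3 RNAi, and the difference was -0.92 (edgeR adjusted p = 0.629).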

How the data were processed

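RNA-seq libraries of sorted repoGFP+ cells were compared between 5D and 34D. The authors trimmed reads with TrimGalore, aligned them to dm6 with STAR 2.7.3a, removed unmapped and improperly paired reads and deposited raw counts on FlyBase exons (summarizeOverlaps, strand setting not stated) for 17562 genes, without normalization. Library preparation amplifies RNA of few cells without molecular identifiers, so counting intervals and reads do not cover that step. The authors used DESeq2 with RUVr, which were alternatives here.

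In R 4.3.3 with limma 3.58.1, edgeR 4.0.16 was run on the counts (TMM scaling, filterByExpr, robust quasi-likelihood F test), on the libraries of the groups compared, and adjusted by Benjamini-Hochberg over all genes tested (threshold 0.05). CPM were scaled by TMM over the 24 sorted libraries, and over 8 for TRAP-IP. Enrichment was the log2 ratio of mean CPM with 1 CPM added. Alternatives were DESeq2 1.42.0, RLE scaling, no filter, a mean count of at least 50, the replicate block, RUVr with 1 factor, larger fits and leaving out each library. Scaling on glia-enriched genes was added later. Scripts were tested on simulated data. Python 3.11.15, scipy 1.17.1 and matplotlib 3.10.9 were used, and gene positions come from Ensembl (BDGP6, dm6 coordinates).

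Genes named are up to 12 each way with the largest change among those past the threshold with at least 10 CPM and no overlap, up to 4 called members or otherwise the 2 most abundant members per list, the 4 genes the study names, repo, and up to 4 each way per interaction. Others are marked. The members and the 34 lists were chosen with earlier results of these data known. Where lists had no member past the threshold, not all of their named members are given.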

Additional observations from a re-analysis of the deposited data

Results flagged for a closer look

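The changes with age of 3 genes differed between repoGFP+ and GFP- cells of control brains by the interaction test of edgeR. The differences were -9.11 for CG9436, -7.57 for asRNA:CR42547 and -2.55 for pes on the log2 scale. CG9436 was lower at 34D in all 3 repoGFP+ libraries and higher in all 3 GFP- libraries, asRNA:CR42547 was at or near 0 only in the aged repoGFP+ libraries among the 12 control libraries, and pes was low in GFP- cells at both ages. With 1 of the 12 libraries left out, pes passed in 3 fits and asRNA:CR42547 in 8, with edgeR adjusted p of 0.0265 to 0.12 and 0.0165 to 0.113, while CG9436 passed in all 12. With the replicate number as a block only CG9436 passed. The interaction of pes was compared with a level of under 7.5 CPM in GFP- cells. Groups of 3 libraries were not examined for outlying samples, and none of the 22 groups of 4 examined for the 11 genes in the TRAP-IP had one.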

How the results depend on the processing

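The number of genes past the threshold with age in control repoGFP+ cells (1 higher and 10 lower) moved with most settings. It was 200 and 490 with DESeq2, 29 and 176 with no filter on low counts, 23 and 237 with RUVr, 47 and 227 with all 12 repoGFP+ libraries in the fit, and 199 and 464 with all 24 sorted libraries. Scaling on glia-enriched genes, chosen after seeing the data, gave 4126 and 62. RLE scaling gave 1 and 12. Leaving out 1 library gave 0 to 15 higher and 0 to 150 lower, the highest of both without 34D Rep3. All 11 genes kept their direction under every setting and passed with DESeq2, RLE scaling, RUVr, no filter and a mean count of at least 50. alrm, e and CG31663 did not pass in the fit of 24 libraries, CG3277 in that of 12, and e and w with scaling on glia-enriched genes.

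Under that scaling the sign turned for ATPsynC (0.53), Ald1 (0.59), Cyp4g15 (0.33), Eaat1 (0.55), Ets21C (0.55), Gad1 (0.77), Gs2 (0.10), Mmp1 (1.11), dl (0.61) and repo (0.12). With 1 library left out the log2 fold change ranged from -5.65 to 0.45 for Ets21C, from -0.45 to 0.13 for Mmp1 and from -0.19 to 0.51 for puc.

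For the interaction with the gate (0 higher and 3 lower), DESeq2 gave 44 and 136, no filter gave 2 lower, and leaving out 1 library gave 0 to 6 higher and 1 to 15 lower. pes did not pass with no filter (edgeR adjusted p = 0.059). For the interaction with the genotype (0 and 0), DESeq2 gave 19 and 48, no filter 1 and 2, and leaving out 1 library 0 higher and 0 to 3 lower. For the TRAP-IP (311 and 454), DESeq2 gave 642 and 654, and leaving out 1 library 98 to 458 higher and 242 to 524 lower.

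With the replicate number as a block the counts were 3 higher and 63 lower for control repoGFP+ cells, where CG3277 and pes did not pass, 1 lower for the gate (CG9436), and 167 higher and 355 lower for the TRAP-IP. The deviations of same-numbered libraries correlated at 0.041 to 0.076 between the ages of repoGFP+ cells, and those of differently numbered ones at -0.048 to 0.003. Between the gates at the same age the ranges were 0.006 to 0.117 and -0.134 to 0.072. The correlations were thus weak but higher for the same number between the ages, and whether the numbers mark a pairing was not tested. The cause of the shifts in the counts was not tested.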

Other observations

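The following 3 genes were chosen after their values were seen, all were lower by DESeq2, and none passed by edgeR on the 6 libraries. Col4a1, a collagen IV chain, was measured at 222, 158 and 399 CPM at 5D and at 3.24, 15.3 and 33.3 CPM at 34D (log2 fold change -3.82, edgeR adjusted p = 0.0819). The other collagen IV chain, vkg, was measured at 176, 182 and 369 CPM and at 43.8, 59.8 and 69.0 CPM (-1.97, edgeR adjusted p = 0.0592), and the perlecan trol at 334, 312 and 516 CPM and at 112, 119.9 and 150.3 CPM (-1.50, edgeR adjusted p = 0.0577). Over the alternatives the edgeR adjusted p ranged from 0.014 to 0.224 for Col4a1, from 0.0063 to 0.179 for vkg and from 0.00585 to 0.515 for trol, and without 34D Rep3 it was 0.0453, 0.0553 and 0.0423. Col4a1 and vkg are both on the hemocyte list and on the blood-brain barrier list. The hemocyte sum, 759 to 1225 CPM at 5D and 333 to 393 CPM at 34D, includes their reads and is no separate value. The part of hemocytes in these values was not tested. All 3 were lower with age in the TRAP-IP, by -2.50, -2.05 and -1.55 on the log2 scale (edgeR adjusted p = 0.000196, 6.65e-05 and 0.000185).

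Some genes were higher in all aged libraries without passing by edgeR, also chosen after their values were seen. The neuropeptide gene Crz (corazonin) was measured at 0.0876, 6.12 and 0 CPM at 5D and at 918, 489.8 and 399 CPM at 34D (log2 fold change 8.24, edgeR adjusted p = 0.0577, and 0.0453 without 34D Rep3), and rose in GFP- cells as well (3.08, edgeR adjusted p = 0.0214). a10 was measured at 0.701, 8.05 and 10.2 CPM and at 291, 133 and 128 CPM (4.96, edgeR adjusted p = 0.0592, and 0.0487 without 34D Rep3), and was higher with age in the TRAP-IP (1.92, edgeR adjusted p = 0.0231). kn, a COE transcription factor, was measured at 0.35, 0.82 and 1.48 CPM and at 13.9, 29.7 and 50.4 CPM (5.23, edgeR adjusted p = 0.0577), beside 13.1 to 64.8 CPM in GFP- cells and 12.6 to 36.1 CPM in repoGFP+ cells of Mettl3 RNAi brains.

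None of the 31 antimicrobial peptide genes passed the filter on low counts. DptA was measured at 81.0 CPM and AttD at 54.3 CPM in 34D Rep3, compared with at most 0.164 CPM in the other 5 repoGFP+ libraries, so that a single library carried their reads. In the TRAP-IP, 1 of the 4 libraries at 34D held 2385 CPM of DptA and the others 31.6 to 155 CPM.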
